A study of Arabidopsis thaliana with 17 samples.

Results

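XTH18, XTH19 and EXGT-A3 are 3 xyloglucan endotransglucosylase/hydrolase genes of Arabidopsis thaliana, and their transcript levels were followed in whole seedlings that had met heat once, repeatedly or not at all. They were chosen by name, each through the single probe set that the platform's annotation gives it, and make up 3 of the 22746 probe sets tested. That choice, and that of the gene lists used below, was made with earlier results of these data known. Counts of called genes set beside the share of all probe sets are therefore descriptions only. EXGT-A3, locus AT2G01850, is also known as XTH27. XTH18 (AT4G30280) and XTH19 (AT4G30290) are neighbours on their chromosome in the RefSeq annotation, with 0 protein-coding genes between them, and XTH24 adjoins XTH18 on the other side. They are close paralogs, and whether their probes also bind each other's transcripts was not tested.

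All plants were of the Col-0 accession, were kept at 22 °C under days of 16 h light, and were collected when 7 d old. In the hsfa2 mutant, the single insertion line SALK_008978, which lacks the heat shock transcription factor HSFA2, there were 2 primed and triggered, 2 triggered and 2 naive arrays. In the wild type there were 3 primed and triggered, 2 primed, 3 triggered and 3 naive arrays. Triggering was a 37 °C water bath for 1 h right before harvest, and priming the same bath for 1 h when the seedlings were 4 d old, with 3 d of recovery after it. Primed and triggered seedlings had both, and naive seedlings had neither. None of the 17 arrays held hsfa2 seedlings that were only primed. The level that priming left before the later heat was therefore not measured in the mutant. Arrays of a group are biological replicates by their labels.

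Xyloglucan is the main hemicellulose of the primary wall of most flowering plants and coats and links cellulose microfibrils. Enzymes of the XTH family cut xyloglucan chains and join the cut end to another chain, or to water in a few members, and so act where walls are loosened, remodelled or laid down during growth. XTH18 and XTH19 belong, with XTH17 and XTH20, to a group of close relatives expressed mainly in the root, where XTH18 is known for a part in root cell elongation. XTH19 has also been linked to the rejoining of cut stem tissue, and EXGT-A3 to the formation of tracheary elements in leaf veins. No sequence of these genes was used here.

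Levels are given as log2 of the deposited intensity, and a change is a difference between group means on that scale, with the standard error (SE) of a limma model fitted to all 17 arrays. A change was called at an adjusted p under 0.05 after Benjamini-Hochberg correction over all probe sets. The array medians lay between 51.8 and 58.9 on the 10 heated arrays, meaning all that had been triggered, against 60.2 to 64.2 on the other 7. The bacterial hybridisation control bioB gave log2 intensities of 4.40 to 4.43 on both primed arrays and on replicate 3 of the wild-type naive group, against 6.98 to 8.14 on the other 14 arrays. The difference between the 3′ and 5′ probe sets of GAPDH was 1.84 to 2.25 on those 3 arrays and 0.52 to 1.69 on the others. The annotation lists no probe set for HSFA2, and the mutant was therefore not checked through that gene.

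A single heat treatment of wild-type seedlings was accompanied by lower levels of all 3 genes, of which XTH19 and EXGT-A3 passed the test. XTH19 was at 5.56, 5.28 and 5.94 in triggered seedlings, against 7.84, 7.62 and 9.87 in naive seedlings. EXGT-A3 was at 9.22, 8.39 and 8.85 in triggered seedlings, against 10.00, 10.03 and 10.93 in naive seedlings. XTH18 was at 6.36, 5.32 and 6.06 in triggered seedlings, against 6.74, 6.64 and 7.13 in naive seedlings. For each gene every triggered array lay below every naive array, as did 16% of all probe sets. Naive replicate 3 was the highest naive array for all 3 genes, and triggered replicate 2 was the lowest triggered one.

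XTH19 fell by 2.85 on the log2 scale (SE 0.50, limma adjusted p = 0.00178), which is 7.20-fold lower. EXGT-A3 fell by 1.5 (SE 0.28, limma adjusted p = 0.00248), or 2.83-fold. The change of XTH18 was −0.92 (SE 0.32, limma adjusted p = 0.0705), with a 95% confidence interval of −1.62 to −0.23, and did not pass the threshold. Thus 2 of 3 genes were called lower, where 9.5% of all probe sets were. In naive replicate 3, XTH19 lay 2.14 above the mean of the other naive arrays. Without that array the change of XTH19 was −2.14 (limma adjusted p = 0.00187) and that of EXGT-A3 −1.20 (limma adjusted p = 0.00847). In whole seedlings, fewer cells of a type and less RNA per cell cannot be told apart.

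**Figure D1:**
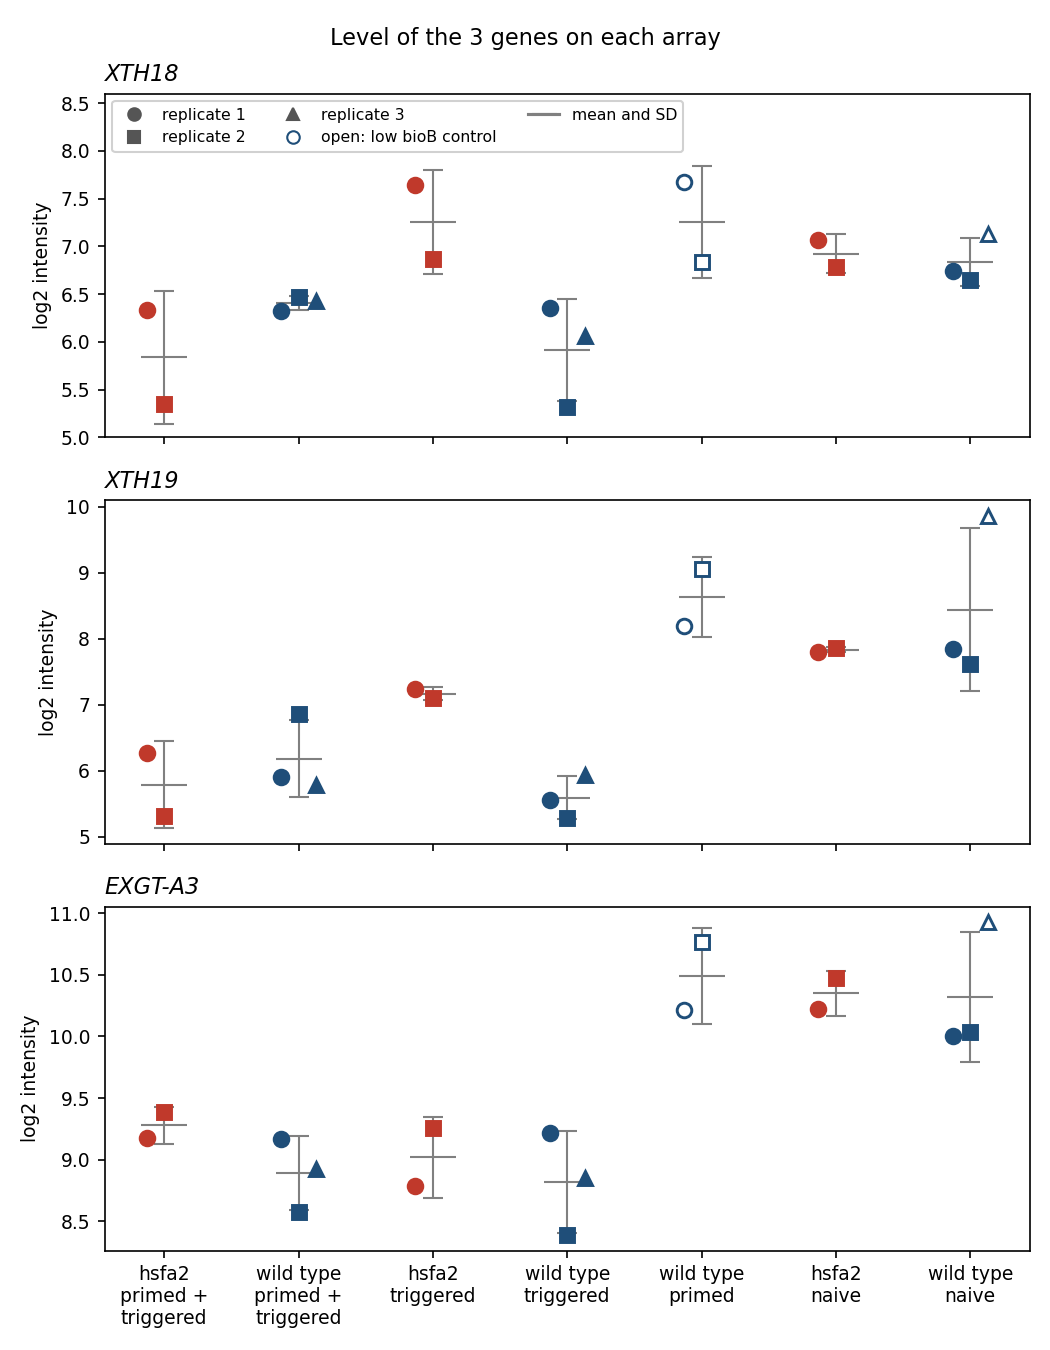
Log2 intensity of XTH18, XTH19 and EXGT-A3 on each of the 17 arrays, with red symbols for hsfa2 and blue for the wild type, symbol shapes for the replicate number, open symbols for the 3 arrays of low bioB control, and a grey line and bar for the group mean and SD. XTH19 in hsfa2 triggered seedlings (7.24 and 7.10) lay above all 3 wild-type triggered arrays (5.28 to 5.94), whereas EXGT-A3 in hsfa2 triggered seedlings (8.79 and 9.25) overlapped the wild-type triggered arrays (8.39 to 9.22).

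After both heat treatments the wild type again had low levels of XTH19 and EXGT-A3. XTH19 was at 5.91, 6.86 and 5.79 in primed and triggered seedlings, a mean of 6.19 ± 0.59 against 8.44 ± 1.24 in naive seedlings (SD, n = 3 each). It fell by 2.26 on the log2 scale (SE 0.50, limma adjusted p = 0.00671), and its change was −1.54 without naive replicate 3 (limma adjusted p = 0.0108). In a fit of the primed and triggered and the naive arrays alone the same change of −2.26 missed the threshold (limma adjusted p = 0.0757). EXGT-A3 was at 9.17, 8.57 and 8.93 in primed and triggered seedlings, a mean of 8.89 ± 0.30 against 10.32 ± 0.52 in naive seedlings (SD, n = 3 each). It fell by 1.43 (SE 0.28, limma adjusted p = 0.00277). XTH18 was at 6.32, 6.47 and 6.42 in primed and triggered seedlings, with a change of −0.43 against naive (SE 0.32, limma adjusted p = 0.381). Its primed and triggered arrays had the smallest spread among the groups for this gene (SD 0.07) and lay below all naive arrays, as did those of the other two genes and 16.6% of all probe sets. Thus 2 of 3 genes were called lower, against 11.9% of all probe sets.

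The first heat alone left no called difference after 3 d of recovery. XTH18 was at 7.67 and 6.84 in primed seedlings, XTH19 at 8.20 and 9.06, and EXGT-A3 at 10.21 and 10.76, and for each gene the primed and the naive arrays overlapped. The changes against naive were 0.42 for XTH18 (SE 0.36), 0.19 for XTH19 (SE 0.56) and 0.17 for EXGT-A3 (SE 0.31), with limma adjusted p-values of 0.805, 0.964 and 0.939. With 0 of 3 genes called, the share over all probe sets was 0.0044%, while at an unadjusted p under 0.05 limma called 9.06% of them and 0 of the 3 genes. Primed arrays share their low bioB signal with naive replicate 3 alone. Against that single array the primed mean was 0.13 higher for XTH18, but −1.23 for XTH19 and −0.44 for EXGT-A3, which turned the direction of XTH19 and EXGT-A3. The confidence interval for XTH19 over all naive arrays ran from −1.03 to 1.41, which leaves room for a change of more than 2-fold either way.

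The response of primed seedlings to the later heat was read against the primed arrays. XTH19 was −2.45 in primed and triggered against primed seedlings (SE 0.56, limma adjusted p = 0.00816) and EXGT-A3 was −1.60 (SE 0.31, limma adjusted p = 0.00298), so 2 of 3 genes were called lower, as were 12.6% of all probe sets. XTH18 had a change of −0.85 (SE 0.36, limma adjusted p = 0.110). For all 3 genes every primed and triggered array lay below both primed arrays, as for 23.2% of all probe sets. Both calls ended with the low bioB signal as a block, at −0.31 for XTH19 (limma adjusted p = 0.826) and −0.69 for EXGT-A3 (limma adjusted p = 0.426). Since both primed arrays have low bioB, naive replicate 3 alone sets this block, and XTH19 was 2.14 above the other naive arrays there. Without primed replicate 2 the change of XTH19 was −2.02. Over the 5 fits with 1 of these arrays left out it ran from −2.87 to −2.02, and 1 of those fits did not keep the call. The difference between this response and that of unprimed seedlings was 0.07 for XTH18 (SE 0.48), 0.40 for XTH19 (SE 0.75) and −0.10 for EXGT-A3 (SE 0.42). None of these passed, with limma adjusted p-values from 0.994 to 0.998, where limma called 0.0176% of all probe sets. It called 4.68% of them, and 0 of the 3 genes, at an unadjusted p under 0.05. With low bioB as a block, again set by naive replicate 3 alone, the value of XTH19 was 1.83 (SE 0.58, limma adjusted p = 0.998). That of XTH18 was 0.36 and that of EXGT-A3 0.51. XTH19 then passed at an unadjusted p under 0.05, as did 2.98% of all probe sets.

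Transcriptional memory is the effect of the earlier heat on the level reached after the later one. In the wild type, primed and triggered minus triggered seedlings gave 0.49 for XTH18 (SE 0.32), 0.59 for XTH19 (SE 0.50) and 0.07 for EXGT-A3 (SE 0.28), each with a limma adjusted p = 1.0. None of the 3 was called, against 0.308% of all probe sets, and at an unadjusted p under 0.05 limma called 0 of the 3 genes against 4.83% of all. Triggered and primed and triggered arrays of the same number deviated together, so the differences within numbers are given as well. They were −0.03, 1.15 and 0.36 for XTH18 and 0.35, 1.58 and −0.15 for XTH19, both largest in replicate 2. For EXGT-A3 they were −0.05, 0.18 and 0.08. With the number as a block in these 6 arrays the limma adjusted p-values were 0.509, 0.575 and 0.921, so again 0 of 3 were called, against 0.624% of all probe sets. XTH18 passed there at an unadjusted p under 0.05, as did 9.69% of all. Leaving out 1 array moved the value of XTH18 to between 0.20 and 0.71 and that of XTH19 to between 0.25 and 0.79.

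In hsfa2 seedlings EXGT-A3 was again called lower after a single heat treatment, while XTH18 and XTH19 were not called. EXGT-A3 was at 8.79 and 9.25 in triggered hsfa2 seedlings, against 10.22 and 10.48 in naive hsfa2 seedlings. It fell by 1.33 (SE 0.34, limma adjusted p = 0.0287), but leaving out any of these 4 arrays ended the call, with values of −1.56 to −1.10. XTH19 was at 7.24 and 7.10 in triggered hsfa2 seedlings, against 7.81 and 7.86 in naive ones, a change of −0.67 (SE 0.62, limma adjusted p = 0.606). In a fit of these 4 arrays alone the same −0.67 passed (limma adjusted p = 0.00874), but the share of all probe sets called in that fit is not given here. XTH18 was at 7.64 and 6.87 in triggered hsfa2 seedlings, against 7.07 and 6.78 in naive ones, with overlapping arrays and a change of 0.33 (SE 0.39, limma adjusted p = 0.705). Thus 1 of 3 genes was called lower, beside 4.88% of all probe sets, and 2 of 3 (XTH19 and EXGT-A3) had every triggered array below both naive ones, beside 32.8%.

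After both treatments all 3 genes were low in hsfa2 as well. XTH18 was at 6.33 and 5.35 in primed and triggered hsfa2 seedlings, XTH19 at 6.26 and 5.32, and EXGT-A3 at 9.17 and 9.38, each below both naive arrays of the mutant, as were 34.9% of all probe sets. The changes against naive were −1.08 for XTH18 (SE 0.39), −2.04 for XTH19 (SE 0.62) and −1.07 for EXGT-A3 (SE 0.34). None was called in the fit of all arrays, with limma adjusted p-values of 0.127, 0.0634 and 0.0791 and 4.82% of all probe sets called lower. At an unadjusted p under 0.05 limma called all 3, and 19.5% of all probe sets. In a fit of these 4 arrays alone the limma adjusted p-values were 0.0375 for XTH18, 0.00241 for XTH19 and 0.00172 for EXGT-A3. The share of all probe sets called in that fit is not given here, so these values cannot be set against it.

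The genotypes were then compared within each treatment. After a single heat treatment XTH18 averaged 7.26 ± 0.54 in hsfa2 (SD, n = 2) and 5.91 ± 0.53 in the wild type (SD, n = 3). XTH19 averaged 7.17 ± 0.10 in hsfa2 (SD, n = 2) and 5.59 ± 0.33 in the wild type (SD, n = 3). For both genes every hsfa2 array lay above every wild-type array, which held for 14.7% of all probe sets. XTH18 was higher by 1.34 (SE 0.36) and XTH19 by 1.57 (SE 0.56), or 2.54-fold and 2.98-fold. EXGT-A3 differed by 0.20 (SE 0.31), and its arrays overlapped. None of these passed over all probe sets, at limma adjusted p-values of 0.475, 0.612 and 0.949, where 0.00879% of probe sets were called. At an unadjusted p under 0.05 limma called XTH18 and XTH19, and 6.93% of all probe sets.

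Naive seedlings of both genotypes overlapped for each gene, with differences of 0.09 for XTH18 (SE 0.36), −0.61 for XTH19 (SE 0.56) and 0.03 for EXGT-A3 (SE 0.31) in hsfa2 minus wild type. The value for XTH19 turned to 0.11 without wild-type naive replicate 3. The limma adjusted p was 0.999 for each, 0% of all probe sets were called, and at an unadjusted p under 0.05 limma called 5.79% of them and 0 of the 3 genes. After both treatments the differences were −0.57 for XTH18 (SE 0.36), −0.39 for XTH19 (SE 0.56) and 0.39 for EXGT-A3 (SE 0.31). Their limma adjusted p-values were 0.505, 0.811 and 0.615, so 0 of 3 were called, against 1.37% of all probe sets. Limma called 0 of 3 at an unadjusted p under 0.05 as well, against 14.6%. Both hsfa2 arrays of EXGT-A3 (9.17 and 9.38) lay at or above the highest wild-type array (9.17), as for 16.7% of all probe sets. Leaving out 1 array moved the difference of XTH18 to between −1.06 and −0.07, and that of XTH19 to between −0.86 and 0.08.

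The response to triggering, as hsfa2 minus wild type, differed by 2.18 for XTH19 (SE 0.80, 95% confidence interval 0.46 to 3.90) and by 1.26 for XTH18 (SE 0.51, interval 0.16 to 2.35). EXGT-A3 differed by 0.17 (SE 0.44). Each had a limma adjusted p = 1.0, with 0.0044% of all probe sets called. At an unadjusted p under 0.05 limma called XTH18 and XTH19, and 1.18% of all. Without wild-type naive replicate 3 the difference for XTH19 was 1.47. The estimated effect of priming on the heated level had opposite signs in the genotypes for XTH18 and XTH19. Within hsfa2, primed and triggered minus triggered seedlings gave −1.42 for XTH18 (SE 0.39, limma adjusted p = 0.772) and −1.38 for XTH19 (SE 0.62, limma adjusted p = 0.839), with both primed and triggered arrays below both triggered ones, as for 26.1% of all probe sets. EXGT-A3 gave 0.26 (SE 0.34, limma adjusted p = 1.0), and in this comparison 0% of all probe sets were called. At an unadjusted p under 0.05 limma called XTH18 and XTH19, and 5.85% of all. Between the genotypes, hsfa2 minus wild type, that priming effect differed by −1.91 for XTH18 (SE 0.51, limma adjusted p = 0.324), by −1.97 for XTH19 (SE 0.80, limma adjusted p = 0.566) and by 0.19 for EXGT-A3 (SE 0.44, limma adjusted p = 0.961). None of the 3 was called, as against 0.0484% of all probe sets. XTH18 and XTH19 passed at an unadjusted p under 0.05, as did 8.13% of all. For these 2 genes every primed and triggered array lay below the triggered mean in hsfa2 and above it in the wild type, as for 7.9% of all probe sets, and for 14.4% with the opposite arrangement included.

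**Figure D2:**
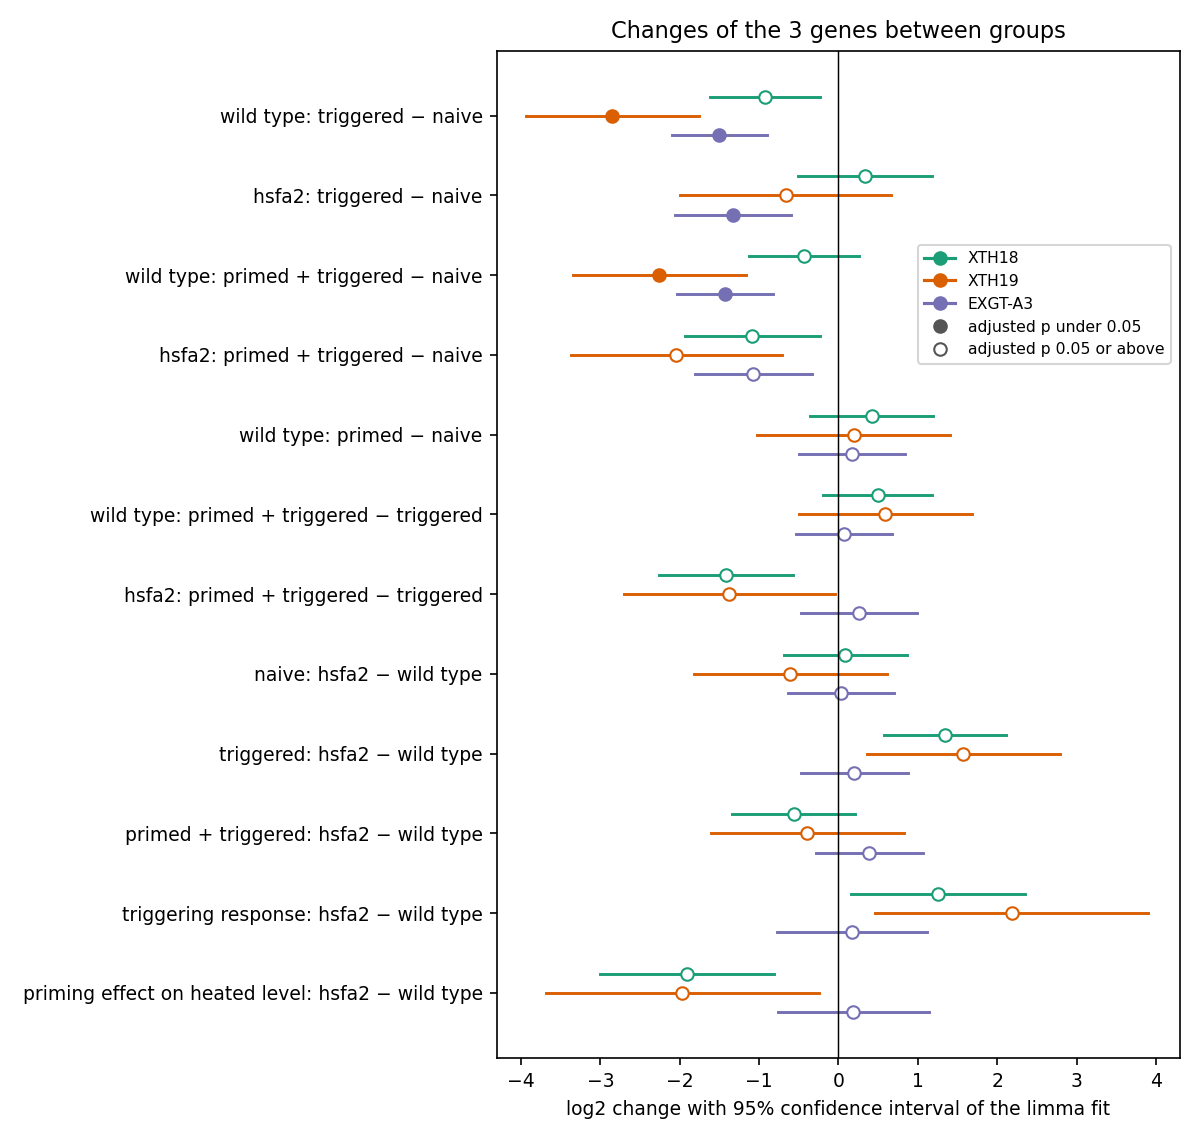
Log2 changes of XTH18, XTH19 and EXGT-A3 in 12 comparisons, each point being the estimate of the limma fit of 17 arrays and each line its 95% confidence interval, with filled points for an adjusted p under 0.05. The filled points are those of XTH19 and EXGT-A3 in both heated wild-type groups against naive and of EXGT-A3 in triggered against naive hsfa2 seedlings.

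Ordered by mean level, EXGT-A3 fell into a low set of 4 heated groups (8.82 to 9.28) and a high set of 3 groups without recent heat (10.32 to 10.49). Neighbouring groups overlapped within each set and were apart between them. XTH19 ran from wild-type triggered (5.59) through hsfa2 primed and triggered (5.79) and wild-type primed and triggered (6.19), which overlapped in turn, to hsfa2 triggered (7.17), hsfa2 naive (7.84), wild-type naive (8.44) and wild-type primed (8.63). The hsfa2 triggered arrays were apart from the neighbouring group on either side, and the last 3 groups overlapped in turn. For XTH18 the low set held hsfa2 primed and triggered (5.84), wild-type triggered (5.91) and wild-type primed and triggered (6.41) seedlings. Hsfa2 triggered seedlings (7.26) stood at the top of its order, in an overlapping run with wild-type naive (6.84), hsfa2 naive (6.92) and wild-type primed (7.26) seedlings.

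Variation between arrays of one group was compared among the 3 genes. Over the 17 arrays the deviations from the group means correlated at r = 0.47 between XTH19 and EXGT-A3, at 0.35 between XTH18 and XTH19 and at 0.07 between XTH18 and EXGT-A3. For XTH19 and EXGT-A3 the largest deviations were both those of wild-type naive replicate 3 (1.42 and 0.61), an array of low bioB. Their correlation without that array was not computed. The correlations are descriptions over arrays that share their hybridisation and normalization. In both hsfa2 heated groups replicate 1 was the higher array for XTH18 and XTH19 and the lower one for EXGT-A3. In primed seedlings XTH18 was higher in replicate 1, and XTH19 and EXGT-A3 in replicate 2. On the scale of each array's own distribution, XTH18 lay between the percentiles 44.3 and 74.5, XTH19 between 44.1 and 94.2 and EXGT-A3 between 83.9 and 97.4.

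The rest of the family was measured in part: of 33 XTH genes, 10 had a probe set with 1 listed gene, the 3 genes above and 7 others. After triggering of the wild type 3 of the 10 were called lower and 0 higher, with a median change of −0.62 against 0.004 over all probe sets, of which 9.5% were called lower and 5.9% higher. The third was XTH26, a root hair gene, which fell by 0.75 (SE 0.18, limma adjusted p = 0.0110), and whose levels were 3.59 ± 0.28 in triggered and 4.35 ± 0.31 in naive seedlings (SD, n = 3 each). XTH32 had a change of −1.10 (SE 0.59, limma adjusted p = 0.248), with naive arrays spread from 7.58 to 10.26. XTH16 had −0.49 (SE 0.27), XTH33, which has a membrane anchor, −0.24 (SE 0.37), XTH20 −0.22 (SE 0.33), XTH21, a gene of root growth, −0.11 (SE 0.20) and XTH29 0.13 (SE 0.12). Naive means were only 3.27 to 4.27 for XTH20, XTH21 and XTH29, and that of the called XTH26 was little higher at 4.35. In triggered hsfa2 seedlings 2 of the 10 were called lower and 0 higher, with a median of −0.48, beside 4.88% and 3.5% of all probe sets. They were EXGT-A3 and XTH26, which fell by 1.08 (SE 0.22, limma adjusted p = 0.00687).

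Of 16 listed genes for xyloglucan synthesis and trimming 5 were measured, all of the CSLC family, whose member CSLC4 is a glucan synthase for the backbone. In triggered wild-type seedlings 3 of the 5 were called lower and 0 higher, with a median of −0.96, beside 9.5% of all probe sets called lower and 5.9% higher. CSLC5 fell by 1.79 (SE 0.20, limma adjusted p = 5.52e-05), CSLC4 fell by 1.21 (SE 0.24, limma adjusted p = 0.00413) and CSLC8 fell by 0.96 (SE 0.20, limma adjusted p = 0.00581). CSLC6 had −0.38 (SE 0.25) and CSLC12 −0.19 (SE 0.11). In triggered hsfa2 seedlings CSLC5 (−1.30, SE 0.25) and CSLC8 (−0.89, SE 0.25) were called, 2 of 5 beside 4.88% of all probe sets, and CSLC4 was not (−0.62, SE 0.30, limma adjusted p = 0.262). CSLC4 was 0.66 higher in triggered hsfa2 than in triggered wild-type seedlings (SE 0.27, limma adjusted p = 0.654). Expansins, which loosen walls without cutting their polymers, had 5 of 7 measured genes called lower in the triggered wild type and 4 of 7 in triggered hsfa2, with medians of −1.30 and −1.22, beside 9.5% and 4.88% of all probe sets. Of all XTH, CSLC and expansin genes measured, XTH19 had the largest difference between triggered hsfa2 and wild-type seedlings, followed by XTH18, and those of the 7 expansins ran from −0.36 to 0.51.

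**Figure D3:**
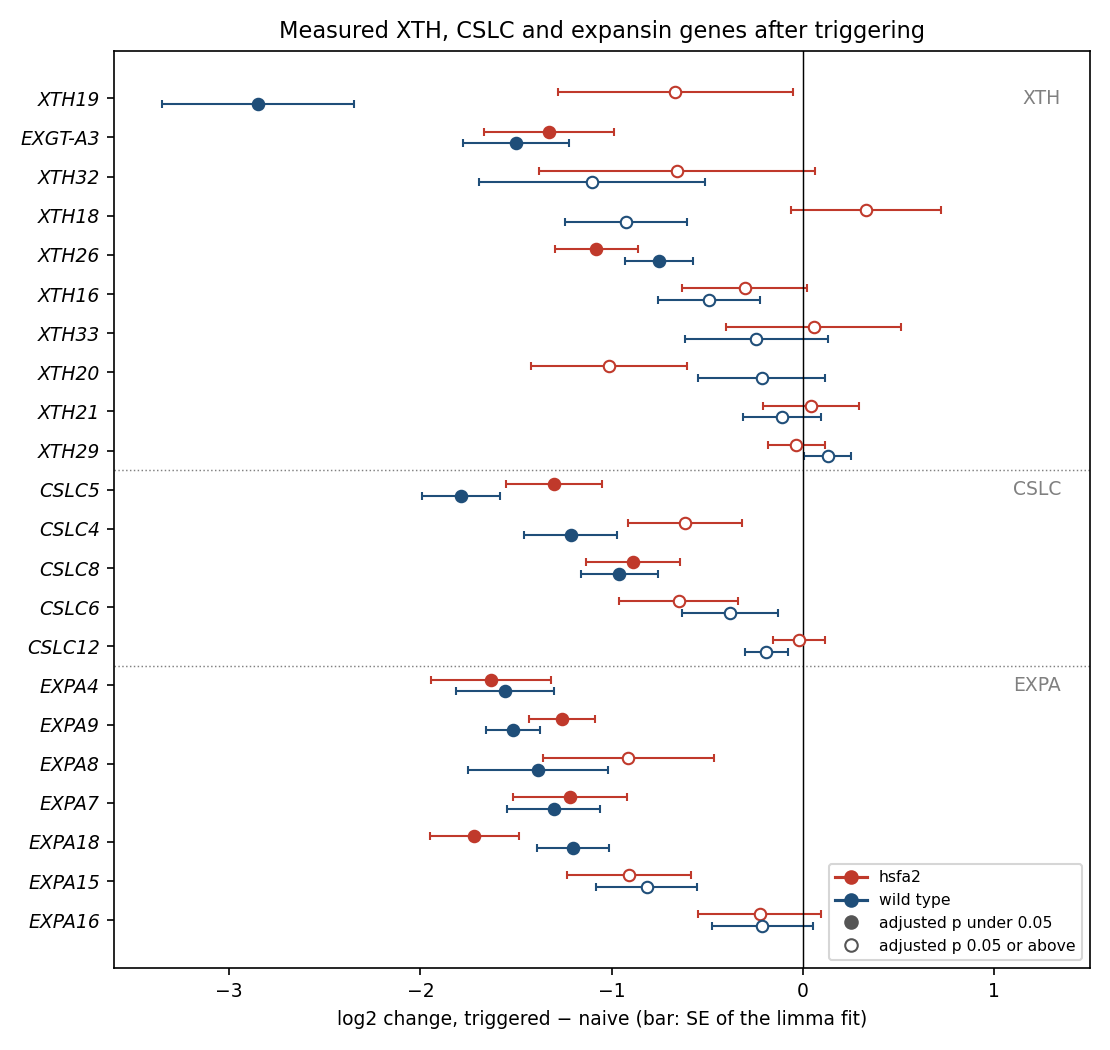
Log2 change in triggered against naive seedlings for the 10 measured XTH genes, 5 CSLC genes and 7 expansins, in hsfa2 (red) and the wild type (blue), with bars for the SE of the limma fit and filled points for an adjusted p under 0.05. XTH19 (−0.67 in hsfa2, −2.85 in the wild type) and XTH18 (0.33 in hsfa2, −0.92 in the wild type) show the widest gaps between the genotypes, whereas EXGT-A3 and most expansins lie close together.

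Markers of root tissue were lower after heat in the same arrays. All 3 measured of 7 listed root and root hair markers (PYK10, EXPA7 and EXPA18) were called lower in the triggered wild type and in triggered hsfa2, beside 9.5% and 4.88% of all probe sets. EXPA7 and EXPA18 are also among the expansins counted above, so these calls are not separate from those. The summed intensity of the 3 was 1975 to 2883 in triggered hsfa2 and 1374 to 1853 in triggered wild-type seedlings, against 5792 to 6539 in naive hsfa2 and 5592 to 6203 in naive wild-type seedlings. This sum is mostly PYK10, with a naive wild-type log2 mean of 12.51 against 5.21 for EXPA7 and 6.07 for EXPA18. In triggered seedlings, hsfa2 minus wild type was 0.53 for PYK10, 0.43 for EXPA7 and −0.36 for EXPA18. None of these differences was called, beside 0.00879% of all probe sets. The 2 measured of 6 leaf markers, RCA and PRK, summed to 15165 to 19760 on the arrays heated just before collection and to 20177 to 22399 on the others. The single measured guard cell marker of 3, FAMA, was at 17.9 to 28.8 on the heated and 21.3 to 57.3 on the other arrays, and 0 of 3 seed markers were measured. The part of these marker differences in the levels of the XTH genes was not tested.

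Across the 17 arrays the gene with the profile most like that of XTH19, among probe sets with 1 listed gene, was CSLC4 (Pearson r = 0.953). It was followed by AT3G49220 (0.949), AT5G41400 (0.941), TRM25 (0.930) and AT4G18970 (0.930). The closest to EXGT-A3 were AT5G08010 (0.958), AT1G61350 (0.955), AT4G28100 (0.952), AT2G02780 (0.951) and AT1G74790 (0.951). Those closest to XTH18 were AT2G31240 (0.863), AT1G07750 (0.837), AT3G57630 (0.819), AT5G14450 (0.815) and AT1G04430 (0.803), with smaller spreads over arrays (SD 0.23 to 0.36) than XTH18 itself (SD 0.65). Among the 3 genes, r was 0.84 between XTH19 and EXGT-A3, 0.74 between XTH18 and XTH19 and 0.50 between XTH18 and EXGT-A3. All arrays of a group share their treatment, so these values mix differences between groups with those between arrays of a group. The second part was not computed for the genes listed by likeness. XTH19 and CSLC4 were both highest in wild-type naive replicate 3, at 2.84 and 1.30 above their means over all arrays, and that array has low bioB.

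**Figure D4:**
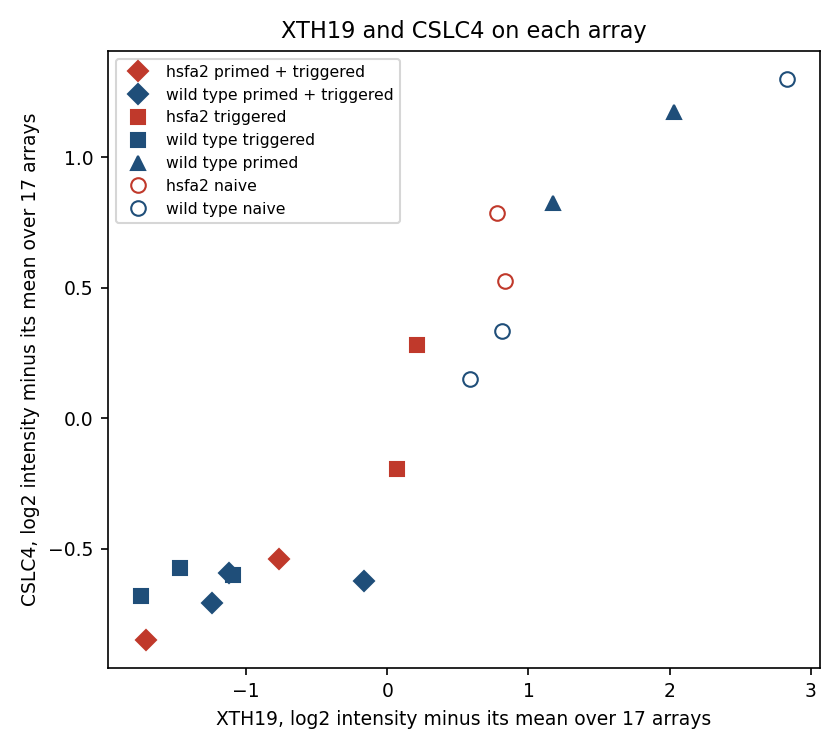
Log2 intensity of CSLC4 against that of XTH19 on each of the 17 arrays, each gene centred on its own mean, with red for hsfa2 and blue for the wild type and a symbol for each treatment. On the XTH19 axis the 2 hsfa2 triggered arrays (0.21 and 0.07) lie between the other heated arrays and the arrays without recent heat, while on the CSLC4 axis replicate 1 (0.28) lies above wild-type naive replicate 2 (0.15). Wild-type naive replicate 3 is the highest for both genes (2.84 for XTH19 and 1.30 for CSLC4).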

How the data were processed

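Seedling RNA was hybridised to 17 Affymetrix arrays. The deposited intensity per probe set is linear and was produced by the authors with RMA, which corrects background, normalizes between arrays and combines the probes of a set, per the submitters' processing notes. The RMA version and options were not stated. Values ran from 3.94 to 19602 with 0 zeros and were analysed as log2 without an offset. After 64 control probe sets were removed, 22746 were tested. In the platform annotation 13513 of these had 1 gene, 503 several and 8730 were not listed. Of the first, 13436 matched RefSeq (TAIR10.1) by gene identifier, which served for names and neighbouring genes alone.

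Means of 7 groups were fitted to all arrays with limma 3.58.1 in R 4.3.3 (10 residual degrees of freedom, prior 2.92), for 14 contrasts. The fit was tested on simulated data. The number of arrays limits the precision. The genes named are the 3 of interest, the measured members of the XTH and xyloglucan lists, and for each of the 3 the 5 with the highest Pearson correlation over all arrays. The measured markers of root, leaf and guard cells are named besides. The 3 genes and the lists were chosen with earlier results of these data known. Deviations from group means of same-numbered wild-type triggered and primed and triggered arrays correlated at 0.563, 0.642 and 0.656, so these numbers pair the arrays. Those of naive and triggered arrays were mixed (−0.162, 0.567 and 0.184) and do not settle whether the numbers pair these. Alternatives covered scaling, an offset of 16, a filter on low values, the variance model, the arrays fitted, blocks and left-out arrays. A promoter search was not run.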

Additional observations from a re-analysis of the deposited data

Results flagged for a closer look

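For XTH18 and XTH19 every hsfa2 array lay on one side and every wild-type array on the other when primed and triggered seedlings were set against the mean of triggered seedlings of the same genotype. The difference between the genotypes was −1.91 for XTH18 (limma adjusted p = 0.324) and −1.97 for XTH19 (limma adjusted p = 0.566), so neither passed the test over all probe sets. Both primed and triggered hsfa2 arrays were lower than the hsfa2 triggered mean, and all 3 wild-type ones were higher than the wild-type triggered mean, which held for 7.9% of all probe sets (14.4% with either direction). Between wild-type arrays of the same number, 1 of 3 pairs went the other way for each gene, at −0.03 in replicate 1 for XTH18 and −0.15 in replicate 3 for XTH19. Leaving out any 1 array kept the difference between −2.40 and −1.42 for XTH18 and between −2.44 and −1.5 for XTH19.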

How the results depend on the processing

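Centring each array on its median raised all wild-type triggering changes by the same amount. The median change over all probe sets was then 0.157, against 0.004 in the main fit. The centred changes were −0.77 for XTH18, −2.69 for XTH19 and −1.35 for EXGT-A3, the last 2 still called by limma. Over the alternatives that left no single array out, 348 of 372 values kept their direction and side of the threshold, 12 newly passed, 3 no longer passed and 9 reversed. With the replicate block the changes of XTH18 passed at −0.92 in the wild type, triggered minus naive (limma adjusted p = 0.0146), at −0.93 in primed and triggered minus primed (limma adjusted p = 0.0237) and at −1.08 in hsfa2 primed and triggered minus naive (limma adjusted p = 0.0293), and its wild-type response difference reversed to −0.0013. Apart from triggered with primed and triggered wild type, whether a number pairs the arrays is not settled. Deviations from group means of same-numbered naive and primed and triggered wild-type arrays correlated at −0.116, 0.61 and 0.196. Those of same-numbered hsfa2 arrays correlated at 0.174 to 0.269. The replicate block changed no other call, and the share of all probe sets called with it is not given here. In fits of only the groups compared, XTH19 no longer passed at −2.26 in wild-type primed and triggered minus naive, and passed at −0.67 in hsfa2 triggered minus naive. In hsfa2 primed and triggered minus naive XTH18 passed at −1.08, XTH19 at −2.04 and EXGT-A3 at −1.07. The share of all probe sets passing in these fits is not given here. The same −2.04 also passed among probe sets at or above the median level, and −2.04 and −1.07 with low bioB as a block and without the arrays of low bioB. Shares of all probe sets passing are not given for those fits either. The low bioB block reversed primed minus naive to −1.23 for XTH19 and −0.44 for EXGT-A3 and the wild-type response difference of EXGT-A3 to 0.51, and moved that of XTH19 to 1.83. It ended the calls in primed and triggered minus primed, at −0.31 for XTH19 and −0.69 for EXGT-A3. Wild-type naive replicate 3 alone sets the block, since the other low bioB arrays make up the whole primed group. This block, and leaving out the low bioB arrays, reversed the naive genotype difference of XTH19 to 0.11 and the triggering response difference of EXGT-A3 to −0.13. Median centring reversed the naive genotype difference of EXGT-A3 to −0.02. The cause of these moves was not tested.

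With single arrays left out, 222 of 258 values kept direction and side, 5 no longer passed and 31 reversed. Primed minus naive ran from 0.0045 to 0.83 for XTH18, from −0.24 to 0.90 for XTH19 and from −0.11 to 0.47 for EXGT-A3. Wild-type primed and triggered minus triggered ran from 0.20 to 0.71 for XTH18, from 0.25 to 0.79 for XTH19 and from −0.15 to 0.27 for EXGT-A3, and primed and triggered minus primed from −1.26 to −0.44 for XTH18 and from −2.87 to −2.02 for XTH19. The wild-type response difference ran from −0.34 to 0.49 for XTH18, from −0.31 to 0.83 for XTH19 and from −0.40 to 0.18 for EXGT-A3. In hsfa2, triggered minus naive ran from −0.05 to 0.71 for XTH18 and from −1.56 to −1.10 for EXGT-A3, and primed and triggered minus naive from −1.58 to −0.59 for XTH18. The naive genotype difference ran from −0.06 to 0.23 for XTH18, from −1.02 to 0.11 for XTH19 and from −0.13 to 0.33 for EXGT-A3. The triggered one ran from −0.03 to 0.43 for EXGT-A3 and the primed and triggered one from −1.06 to −0.07 for XTH18 and from −0.86 to 0.08 for XTH19. For EXGT-A3 the triggering response difference ran from −0.13 to 0.40 and the memory difference from −0.04 to 0.42. With 2 arrays in several groups, a left-out array leaves 1, which is taken to vary like the other groups.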
